A study of Nicotiana tabacum with 36 samples.

Results

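A set of 102 genes was expressed at a higher level in leaves of Yanyan97 tobacco (YT, cold resistant) than in leaves of Taiyan8 tobacco (TT, susceptible to cold) before the cold and at every time point of it. The members were chosen from the deposited TPM values (transcript abundance scaled for gene length and library depth) as the genes whose mean TPM + 1 in YT was at least 2 times that in TT at all 6 time points. Of the 35519 gene models, 158 met this ratio. Among them, 56 were left out because they lie in 4 chromosome regions set apart by the rule or are 5 single genes it names, and 102 remained. The same ratio in the other direction, higher in TT at all 6 time points, was met by 73 genes. Because the YT to TT difference chose the members, it is described below and not tested.

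YT and TT are varieties of Nicotiana tabacum, with no transgene and no treatment other than the cold. Young seedlings with a few leaves were moved to 4 °C, and leaves were taken before the cold (0 h) and after 0.5, 1, 2, 4 or 8 h of it, with 3 biological replicates in each of the 12 groups. Each cultivar stands for 1 genotype, so a difference between them is a difference between these 2 varieties. The sample labels and the study's methods describe the growth of the seedlings before the cold differently, and the labels give seedlings as the tissue while the protocol names leaves. No file at hand pairs the gene identifiers with names, so leaf markers could not be checked. Time points after 0 h were compared with 0 h alone, so hours in the cold and time of day cannot be told apart. In bulk leaf RNA, fewer cells of a type and less RNA per cell cannot be told apart either.

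Plants meet low temperature with a wave of transcription that is read from membranes and calcium signals through kinases and phosphatases to transcription factors such as the CBF proteins of the AP2 family, and from there to protective proteins. Genes can also differ in level between varieties in the absence of any stress, before any signal of cold arrives. Plant varieties commonly differ in the level of many genes, in promoters, in gene copies and in whole stretches brought in by breeding. Tobacco is an allotetraploid with a pair of closely related copies of most genes, and the reads of both copies can be hard to separate.

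The 36 libraries held from 15484160 (YT 4 h replicate 3) to 26691552 counts on gene models. On log2(TPM + 1), each library correlated with the other libraries of its group at a mean r of 0.974 to 0.991 across genes, which are not independent replicates. The library names in the TPM table end in A or B, and the meaning of the letter is not given in the sources used here. Of the 18 libraries of each cultivar, 17 end in A in YT and 9 in TT, and the 3 libraries of TT at 0 h all end in B. Both cultivars hold A libraries at the 5 cold time points. With these alone, 93 of the 102 members had a ratio of 2 or more at all 5, and the lowest single ratio was 1.04. The values are among those that chose the members, so the count is a description and no check on the letter. TT has only 1 A library at 1 h and 1 at 8 h. At 4 h all libraries end in A, so the ratio there is that of the rule. At 0 h, where the YT libraries all end in A, the letter and the cultivar cannot be told apart.

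No member could be matched to a name in the RefSeq gene table at hand, which does not use these gene identifiers. The study's supplementary tables annotate 15 of the 102 members, and the other 87 are known here by identifier and position only. Of the 50 hub genes that the study drew from a co-expression module it calls brown, 11 were members, 24 were among the genes left out by region or name, and 10 were higher in TT at all 6 time points. The tables also name 14 transcription factors (TFs) and 6 protein kinases (PKs) that differ between the cultivars, and 2 of each were members. None of the 50 hub genes of the pink module, the TFs or the 79 PKs listed for cold in either cultivar, or the 9 NtCBF genes found in the files was a member. The study chose the modules, TFs and PKs on these same samples, so these counts are not independent evidence of a direction.

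The most abundant annotated members were a relative of RD22, one of PDF1 and a cystatin. Nitab4.5_0001133g0020 (chromosome 17, 100678880 to 100680486, minus strand, in the Nitab-v4.5 build used for all positions here) encodes a BURP domain protein related to RD22, which in Arabidopsis responds to dehydration and abscisic acid. Its TPM in the 18 YT libraries ran from 412 through a median of 666 to 1032, and in the 18 TT libraries from 16.6 through 75.5 to 160.2. Every YT library was above every TT library. Nitab4.5_0000446g0080 (chromosome 23) is listed as similar to PDF1, a protodermal factor that marks the epidermis in Arabidopsis. Its TPM was 167 to 379.9 in YT, with a median of 286, and 2.89 to 75.2 in TT, with a median of 50. Nitab4.5_0001735g0110 (chromosome 13) encodes a cystatin, an inhibitor of cysteine proteases, and had a median TPM of 185 in YT (139.6 to 234) and of 31 in TT (17.4 to 50.4). The ranges of the cultivars did not overlap for either gene.

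Members of metabolism and organelle function had moderate levels in YT and low levels in TT. Nitab4.5_0000363g0020 (chromosome 17), related to the PII protein GLB1 that in plants senses nitrogen and carbon state in the chloroplast, had a median TPM of 46.2 in YT (35.1 to 57.0) and 0.766 in TT (0 to 1.19). Nitab4.5_0000138g0050 (chromosome 17), an H protein of the glycine cleavage system that acts in photorespiration, had a median of 27 in YT and 1.52 in TT. Nitab4.5_0000206g0170 (chromosome 17), a pterin-4-alpha-carbinolamine dehydratase, an enzyme of pterin recycling, had a median of 58.5 in YT and 5.55 in TT. For Nitab4.5_0000714g0090 (chromosome 4), a protein with a domain of unknown function, the medians were 62.0 in YT and 1.20 in TT. Nitab4.5_0004398g0070 (chromosome 17), a lipase-like alpha/beta hydrolase, had a median of 16.7 in YT, and its TPM in TT had a median of 0 and a highest value of 0.419. Every YT library was above every TT library for each of these 5 genes.

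Signalling and protein folding were represented by a phosphatase, a cyclophilin and a pair of kinases. Nitab4.5_0000363g0030 (chromosome 17), a protein phosphatase 2C, a family that includes negative regulators of abscisic acid signalling, had a median TPM of 25.2 in YT and 0.0756 in TT. Nitab4.5_0001150g0020 (chromosome 2), related to ROC7, a cyclophilin that helps proteins fold by turning proline bonds, had a median of 30.1 in YT and 1.94 in TT. Nitab4.5_0000525g0010 (chromosome 14), a leucine-rich repeat kinase, had a median of 29.9 in YT and 4.90 in TT. A receptor-like cytoplasmic kinase of class VI, Nitab4.5_0000525g0060 (chromosome 14), lies on the same scaffold and had a median of 2.53 in YT and 0 in all 18 TT libraries.

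The nuclear proteins among the annotated members had low levels in both cultivars. Nitab4.5_0000138g0040 (chromosome 17), a PHD-finger protein of a class that reads histone marks, had a median TPM of 9.33 in YT and 1.17 in TT. The AP2-EREBP genes Nitab4.5_0000202g0480 (chromosome 24) and Nitab4.5_0000138g0030 (chromosome 17), of the TF family that also holds the CBF genes, had medians of 8.01 and 3.80 in YT. In TT the first reached 0.174 at most and the second was at 0 in every library. Both were present in all 18 YT libraries.

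**Figure D1:**
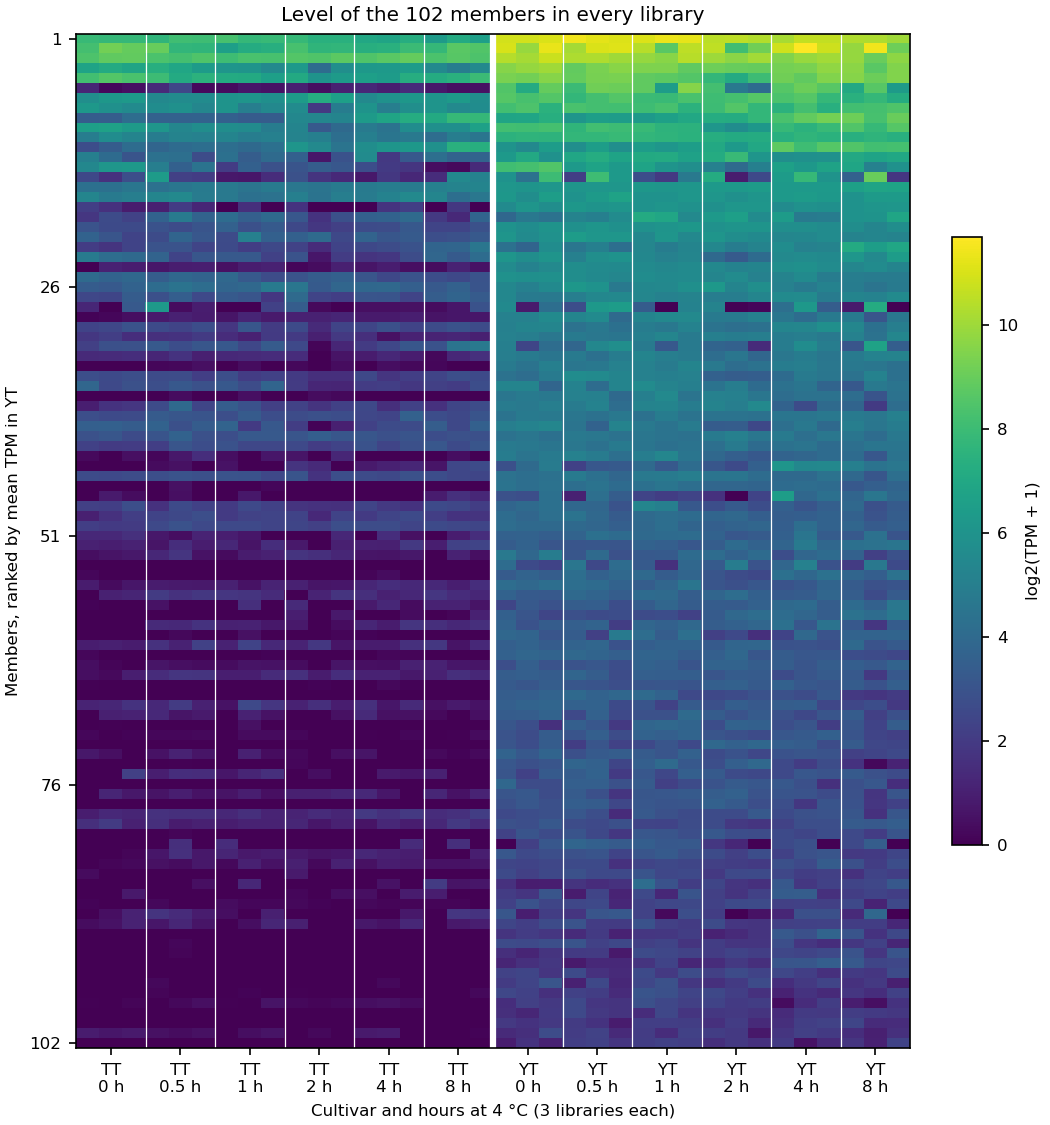
Heat map of log2(TPM + 1) for the 102 members (rows, ranked by mean TPM in YT) in the 36 libraries (columns, 3 for each cultivar and time point). Rows are brighter in the YT columns than in the TT columns at every time point, which is what the rule selects, and a few rows differ strongly between replicates of one YT group.

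Among the 5 members with the highest mean TPM in YT, 4 have no description in the study's tables. Nitab4.5_0000152g0350 (chromosome 2) had a median TPM of 1730.4 in YT and 209 in TT. Its 3 YT libraries at 0 h read 1925, 1902 and 2104, against 237, 222 and 219.8 in TT. Nitab4.5_0000037g0320 (chromosome 14) had medians of 1491 and 211, Nitab4.5_0000036g0420 (chromosome 17) of 1025 and 349.9, and Nitab4.5_0002908g0110 (chromosome 14) of 547 and 145. The RD22 relative completed the 5. In all, 14 members had a mean TPM of 100 or more in YT, 49 lay between 10 and 100, and 39 were below 10, with a median of 13.1 over the members against 16.3 over the 20409 genes that averaged at least 1 TPM.

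The size of the difference was uneven. The median ratio of a member over the 6 time points was 4.92 at the middle of the set and ran from 2.23 to 163. It was 8 or more for 27 members, 4 to 8 for 44 and under 4 for 31. The largest belonged to Nitab4.5_0000363g0010 on chromosome 17. Within a member the log2 ratio spanned a median of 1.08 between its lowest and highest time point, 44 members stayed within a span of 1, and 12 spanned 2 or more. All 18 YT libraries lay above all 18 TT libraries for 71 members. Within time points, the 3 YT libraries lay above the 3 TT libraries at all 6 time points for 90 members, at all but 1 for 6, and overlapped at 2 or more for the remaining 6. The rule selects for such a separation on these same values, and the share over all genes was not computed.

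At the edge of the rule, the 3 members just inside it were Nitab4.5_0003259g0020, Nitab4.5_0000558g0010 and Nitab4.5_0002908g0110, with lowest ratios of 2.00, 2.02 and 2.03. The 3 genes just outside were Nitab4.5_0000174g0100, Nitab4.5_0000026g0020 and Nitab4.5_0004261g0040, at 1.99, 1.99 and 1.96. Their highest ratios were 4.26, 4.12 and 4.04, within the range of the members inside, which reached 3.10, 25 and 5.11.

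The label of the set calls the genes dispersed, which holds only in part. Members lay on 18 of the 24 chromosomes, but 37 of the 102 (36.3%) were on chromosome 17, which holds 9.08% of all gene models. Chromosome 14 held 13 and chromosome 12 held 8, and chromosomes 1, 3, 6, 10, 11 and 22 held none, while the rule had already left out the start of chromosome 11 and a stretch of chromosome 17. Of the 73 genes higher in TT at all time points, 11 (15.1%) were on chromosome 17. The members sat on 74 scaffolds of the assembly, 59 alone and 43 in 15 scaffolds with at least one other member, and 48 had another member within 1 Mb.

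**Figure D2:**
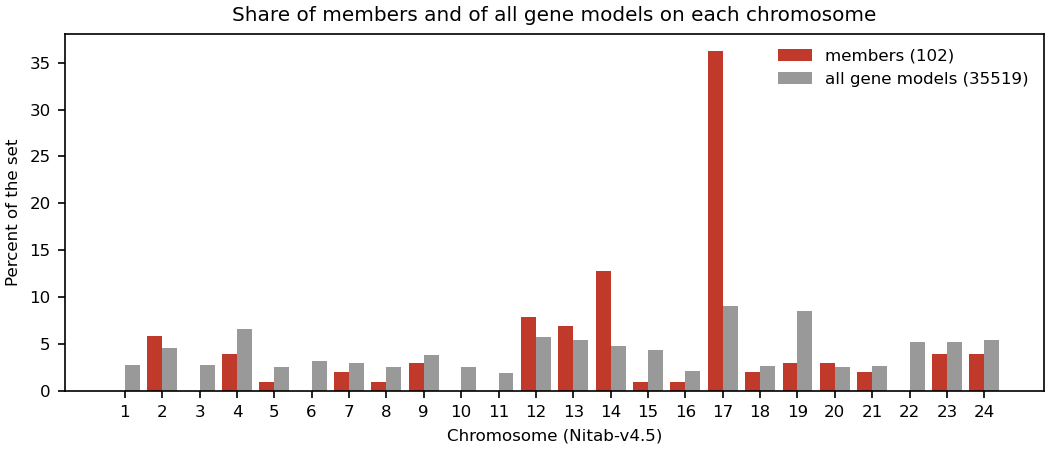
Percent of the 102 members and of the 35519 gene models on each of the 24 chromosomes. Chromosome 17 holds 36.3% of the members and 9.08% of the gene models, and 6 chromosomes hold no member.

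The largest cluster held 7 members on a single scaffold, in 433 kb of chromosome 17 between 13178426 and 13611790. This span contains 17 gene models, of which 14 averaged at least 1 TPM. Of the 5 highest median ratios in the whole set, 3 belonged to its right-hand part. Nitab4.5_0000363g0030, the phosphatase 2C, had a median ratio of 23.6, Nitab4.5_0000363g0020, the PII relative, one of 26, and Nitab4.5_0000363g0010 one of 163 with a mean TPM of 328 in YT and 0.992 in TT. The members Nitab4.5_0000363g0170, g0120, g0080 and g0040 had median ratios of 3.59, 6.79, 6.48 and 9.43. Of the 10 other gene models in the span, 3 averaged under 1 TPM, and examples of the rest had nearer levels in the cultivars. Nitab4.5_0000363g0110 had a mean TPM of 26.2 in YT and 33.9 in TT, and Nitab4.5_0000363g0090 had 168 and 118. None of the 10 non-members in the span met the ratio at all 6 time points in either direction.

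Another cluster on chromosome 17, from 57848724 to 57942179, held 5 members in 93.5 kb, and these were the only 5 gene models of the span. They were the PHD-finger gene, the AP2-EREBP gene g0030, the glycine cleavage H protein gene, and the unannotated Nitab4.5_0000138g0010 and Nitab4.5_0000138g0020, with median ratios from 2.95 to 11.6. On chromosome 23 the PDF1 relative stood beside Nitab4.5_0000446g0070 and Nitab4.5_0000446g0010 in 17.7 kb that hold no other gene model. One scaffold of chromosome 14 held both kinase genes and Nitab4.5_0000525g0050, whose model ends 15 bases before that of the class VI kinase on the same strand. A gap of 10 bases separates Nitab4.5_0000084g0350 and Nitab4.5_0000084g0360 on chromosome 4. These pairs are counted here as separate genes, as the annotation gives them.

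Genes next to a member but outside the set were compared with all other genes, as a description. Among 168 non-member genes that were the first expressed gene on either side of a member, 20 (11.9%) had a median ratio of 2 or more in favour of YT, against 1.93% of the 20307 other genes that averaged at least 1 TPM. In favour of TT the counts were 4 (2.38%) and 1.09%. The middle of the distribution moved little, with a median log2 ratio of 0.19 next to a member and 0.14 over all others. From the second to the fifth gene away, 5.46%, 6.38%, 3.70% and 4.66% were higher in YT by the same measure. Of the 20, 1 was among the single genes that the rule leaves out by name and met the ratio at all 6 time points. The other 19 missed it at 1 or more.

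**Figure D3:**
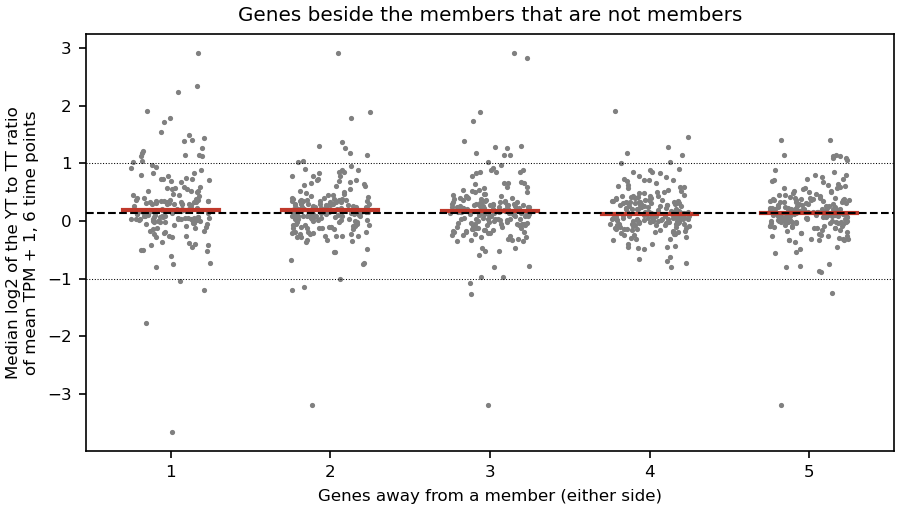
Median log2 YT to TT ratio of mean TPM + 1 over 6 time points for genes 1 to 5 places from a member that are not members (grey points, one a gene, with medians in red). The dashed line is the median of all other genes (0.14), the dotted lines mark a ratio of 2 in either direction, and most neighbours lie between the dotted lines at each distance.

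What the members shared beyond their position was limited. Their gene models were somewhat shorter than others, with a median summed exon length of 805.5 bases. The median was 1165 for the 20409 genes that averaged at least 1 TPM, 912 for all 35519 gene models and 789 for the 73 genes higher in TT. Single-exon models made up 11.8% of the members and 12.7% of all models, and 53.9% were on the plus strand. The models of 4 members overlapped another model, in each case on the opposite strand, and the counts were made without regard to strand. Of these, Nitab4.5_0001049g0140 and Nitab4.5_0001049g0180 on chromosome 14 are both members, and their reads cannot be told apart.

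In 9 members TT had 3 counts or fewer in all 18 libraries, and in 21 more in 9 to 17 libraries. The other 72 had such low counts in at most 8 TT libraries, and 48 of them in none. Among all genes that averaged at least 1 TPM, 0.0980% had 3 counts or fewer in all 18 TT libraries, a share that the choice of members raises. The 5 of the 9 with the highest CPM (counts scaled to library total) in YT were Nitab4.5_0005041g0010 (chromosome 18), Nitab4.5_0000194g0050 and Nitab4.5_0001553g0060 (chromosome 14), Nitab4.5_0004554g0030 (chromosome 12) and Nitab4.5_0001068g0070 (chromosome 8). Nitab4.5_0005041g0010 had 91 to 456 counts in the YT libraries and 2 counts in the 18 TT libraries together. Against a floor of 3 counts per TT library its mean of 9.78 ± 4.39 CPM (SD, n = 18) in YT was at least 73.3-fold higher, and the bounds for the other 4 were 42.8, 36.2, 34 and 23. The AP2-EREBP gene Nitab4.5_0000138g0030 had 0 counts in all TT libraries and 19 to 70 in YT. At this depth a transcript in TT below the floor was not detectable.

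When the ratio was computed from the deposited counts in place of TPM, 88 of the 102 members met it and 14 did not. All 102 had a higher level in YT at every time point on this measure too, with a lowest ratio of 1.13. That lowest ratio belonged to Nitab4.5_0001049g0180, one of the overlapping pair. Its median ratio was 4.86 in TPM and 1.65 from counts. The 14 also include Nitab4.5_0002908g0110 (lowest ratio from counts 1.89) and Nitab4.5_0000036g0420 (1.93), both among the most abundant members. Nitab4.5_0000363g0170 (1.91) in the largest cluster and Nitab4.5_0000446g0070 (1.66) on chromosome 23 missed it as well.

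The response to cold is independent of the rule in that the rule compares cultivars and not time points, although it bounds how far a member can fall in YT or rise in TT. All 102 members were among the 23740 genes that passed the expression filter, helped by their level in YT. A gene was called where edgeR's quasi-likelihood test on the counts gave a Benjamini-Hochberg adjusted p under 0.05 and a change of more than 1 log2 unit. In YT, 2, 2, 9, 11 and 14 members were called after 0.5, 1, 2, 4 and 8 h of cold, each against 0 h. Over all genes tested the percent called was 1.57%, 3.93%, 7.91%, 12.6% and 17.3%, and the corresponding shares of members were 1.96%, 1.96%, 8.82%, 10.8% and 13.7%. In TT, 8, 11, 19, 16 and 18 members were called, or 7.84%, 10.8%, 18.6%, 15.7% and 17.6%, against 6.3%, 7.45%, 14.4%, 15.5% and 21.2% of all genes. All TT libraries end in A at 4 h and in B at 0 h, so cold and the letter cannot be told apart in that comparison. The other cold time points of TT mix both letters, against B alone at 0 h. The direction was mixed. In YT, 1, 1, 2, 9 and 9 members were called up in order of time (0.98%, 0.98%, 1.96%, 8.82% and 8.82%) and 1, 1, 7, 2 and 5 down (0.98%, 0.98%, 6.86%, 1.96% and 4.9%), against 1.46%, 3.37%, 4.81%, 8.73% and 9.94% of all genes up and 0.11%, 0.56%, 3.1%, 3.87% and 7.33% down. In TT the counts were 6, 5, 8, 7 and 11 up (5.88%, 4.9%, 7.84%, 6.86% and 10.8%) and 2, 6, 11, 9 and 7 down (1.96%, 5.88%, 10.8%, 8.82% and 6.86%), against 5.13%, 5.65%, 8.05%, 9.55% and 12.4% up and 1.17%, 1.8%, 6.32%, 5.93% and 8.79% down. The directional shares of the members lay on both sides of those of all genes, farther above them for calls down at 1 and 2 h in TT and at 2 h in YT and below them for calls up at 1 h in YT, and these differences were not tested. The median log2 fold change of the members at 8 h was 0.04 in YT and 0 in TT, and over all genes it was -0.02 and -0.05. The TT shares and median include 9 members with 3 counts or fewer in all 18 TT libraries and 21 more in 9 to 17. For these a change with cold in TT was not detectable unless large.

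**Figure D4:**
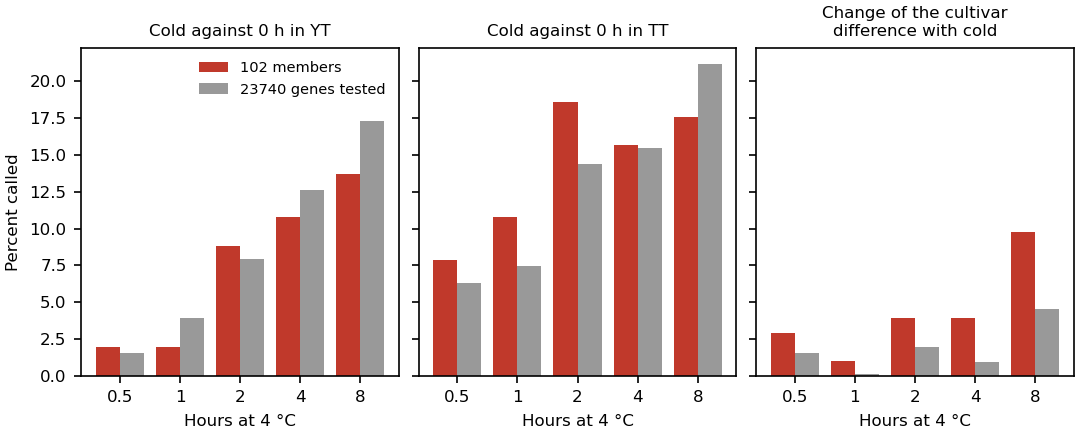
Percent of the 102 members (red) and of the 23740 genes tested (grey) called at each time point, for cold against 0 h in YT and in TT and for the change of the cultivar difference with cold. At 8 h the shares were 13.7% and 17.3% in YT, 17.6% and 21.2% in TT, and 9.8% and 4.55% for the change of the difference.

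Over the 5 cold time points together, 23 members (22.5%) were called in YT and 34 (33.3%) in TT. Over all genes tested the shares were 22.4% in YT and 29.7% in TT. Of the 102 members, 16 were called in both cultivars and 61 in neither. The 61 include members with few or no counts in TT at any time point. Of all genes tested, 36.6% were called in at least one cold comparison of either cultivar, and of the members 40.2%. Where a member was called in both cultivars at the same time point, which happened for 1, 2, 6, 4 and 6 members from 0.5 to 8 h, the direction was the same in each case. Shares of all genes called in both cultivars, and their agreement in direction, were not computed, so neither is a trait of the members.

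At 8 h several members rose in both cultivars. Nitab4.5_0000037g0370 (chromosome 14, 9231232 to 9231439) read 63.8, 43.7 and 88.4 TPM in YT before the cold and 369, 284 and 304 after 8 h. In TT it read 5.84, 9.68 and 16.4 before and 56.7, 173 and 159 after. The replicates did not overlap in either cultivar, and the log2 fold change was 2.86 ± 0.34 (SE) in YT and 3.47 ± 0.36 in TT (edgeR, adjusted p = 8.88e-08 and 6.35e-09). Nitab4.5_0000363g0120 in the chromosome 17 cluster was called at 8 h alone in both cultivars, going from 19.4, 12.5 and 51.1 to 140.1, 88.7 and 119 TPM in YT. In TT it went from 3.17, 2.35 and 4.03 to 12.5, 13.1 and 23.2. Its log2 fold changes were 2.34 ± 0.36 and 2.27 ± 0.37 (edgeR, adjusted p = 6.0e-06 and 9.62e-06), and the change of the cultivar difference was 0.07 ± 0.49. Nitab4.5_0000446g0010 (chromosome 23), beside the PDF1 relative, rose in YT at 8 h from 14.1, 25 and 20.3 to 61.6, 62.7 and 118 TPM, a log2 fold change of 2.31 ± 0.52 (edgeR, adjusted p = 0.000754). It was called up in YT at 1, 2 and 4 h too (2.36, 2.13 and 1.40). In TT it was called up at 0.5, 1 and 4 h (1.84, 1.57 and 1.52) but read 2.66, 5.40 and 4.00 before the cold and 2.85, 1.58 and 12.7 after 8 h, which overlap, and the 8 h difference between the cultivars in this change was not called (1.94 ± 0.76, edgeR, adjusted p = 0.10).

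Among the kinases, the class VI gene Nitab4.5_0000525g0060 rose in YT at 4 and 8 h. It had 24, 30 and 39 counts before the cold, 113, 130 and 107 after 4 h and 121, 80 and 73 after 8 h, with log2 fold changes of 2.32 ± 0.52 and 1.82 ± 0.51 (edgeR, adjusted p = 0.0021 and 0.0086). TT had 1 count in 18 libraries, so no change with cold could be measured there. Its neighbour Nitab4.5_0000525g0050 was called at 4 h (1.91 ± 0.49, edgeR, adjusted p = 0.0075) and not at 8 h. The leucine-rich repeat kinase on the same scaffold was called in no cold comparison over all libraries.

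Of the 5 members called down at 8 h in YT, Nitab4.5_0000680g0150 is described below. Nitab4.5_0000194g0050 fell by 1.67 ± 0.41 on the log2 scale, Nitab4.5_0000363g0040 by 2.50 ± 0.55 and Nitab4.5_0001438g0040 by 1.32 ± 0.47 (edgeR, adjusted p = 0.0032, 0.000732 and 0.029). The last of these is outside the naming rule and was chosen after its values were seen. The fifth call, Nitab4.5_0002479g0020 (-1.14 ± 0.45, edgeR, adjusted p = 0.048) was lost when any of 5 single libraries was left out, the highest adjusted p being 0.18 without YT 8 h replicate 2. In TT at 8 h the most abundant member, Nitab4.5_0000152g0350, fell from 237, 222 and 219.8 to 82.8, 139.7 and 96.0 TPM, a log2 fold change of -1.20 ± 0.18 (edgeR, adjusted p = 2.73e-06). In YT it went from 1925, 1902 and 2104 to 1275, 1205 and 1053, which was -0.49 ± 0.18 and not called. The cultivars did not differ in this change at the threshold (0.71 ± 0.25, edgeR, adjusted p = 0.072).

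At 2 h 5 members were called down in both cultivars, among them Nitab4.5_0000680g0150, and the share over all genes was not computed. Nitab4.5_0002908g0110 read 656, 594 and 752 TPM in YT before the cold and 213, 141 and 255 after 2 h. In TT it read 286 to 379 before and 62.8 to 137 after. Its log2 fold changes at 2 h were -1.60 ± 0.26 and -1.76 ± 0.26 (edgeR, adjusted p = 3.04e-05 and 5.38e-06). By 8 h YT was back at 759, 532 and 715, with 148, 169 and 253 in TT. Nitab4.5_0000316g0090 (chromosome 19) and the overlapping pair Nitab4.5_0001049g0140 and Nitab4.5_0001049g0180 were also called down at 2 h in both cultivars, with log2 fold changes between -2.94 and -2.0. These 3 were chosen after their values were seen.

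The change of the cultivar difference with cold was tested as an interaction, the change in YT minus that in TT. The rule asks for a ratio of at least 2 at each time point but does not compare the time points. An interaction was called for 3, 1, 4, 4 and 10 members at 0.5, 1, 2, 4 and 8 h, against 1.57%, 0.114%, 1.98%, 0.918% and 4.55% of all genes, and for 14 members (13.7%, against 7.17% of all genes) at 1 or more time points. The change favoured YT for 1, 0, 1, 2 and 6 members and TT for 2, 1, 3, 2 and 4, and the shares of all genes were 0.371%, 0.0337%, 0.994%, 0.371% and 2.18% in favour of YT and 1.2%, 0.08%, 0.986%, 0.548% and 2.37% in favour of TT. These made 22 calls, of which 6 in 5 members were kept in the 5 other fits and without each of the 12 libraries of the contrast in turn. Because the TT libraries before the cold all end in B and those of YT all end in A, the interaction was also fitted on YT libraries ending in A and TT libraries ending in B, an alternative chosen after seeing the data. At 0.5, 1, 2 and 8 h this called 2, 0, 15 and 8 members, against 1.06%, 0.169%, 6.56% and 2.06% of the 24830 genes tested. At 4 h no TT library ends in B, so the interaction at 4 h cannot be told apart from the letter. At 0.5 h and at 2 h the fit rests on a single cold TT library, assumed to vary like the others. The one at 2 h is replicate 2, whose mean r with its group, 0.976, was the lowest of the TT libraries. The 6 calls were made in this fit too, with the values given below for each gene. The 5 were Nitab4.5_0000680g0150, Nitab4.5_0000628g0110, Nitab4.5_0002977g0140, Nitab4.5_0000295g0070 and Nitab4.5_0000363g0080, and 4 of them are on chromosome 17.

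Nitab4.5_0000680g0150 (chromosome 2, 1511167 to 1511682) fell in both cultivars and further in TT. In YT its TPM averaged 311 ± 47.1 (SD, n = 3) before the cold, read 32.7, 15.4 and 31.9 after 2 h and 115, 34.1 and 60 after 8 h. In TT it read 41.5, 68.8 and 73.2, then 7.26, 9.98 and 8.03, and then 0.332, 0.239 and 1.66, where its counts were 6, 3 and 22. All 3 YT libraries were higher after 8 h than after 2 h and all 3 TT libraries were lower, a step between cold time points that was not tested. The changes at 8 h were -1.99 ± 0.41 in YT and -6.16 ± 0.56 in TT on the log2 scale, and their difference was 4.17 ± 0.69 (edgeR, adjusted p = 0.000736). Within the TT libraries ending in B, of which 8 h holds 2, the change was -5.85 ± 0.56 (edgeR, adjusted p = 3.52e-06), and the interaction with YT libraries ending in A was 4.19 ± 0.69 (adjusted p = 0.0034).

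Nitab4.5_0000628g0110 (chromosome 17, 90074774 to 90077694) rose in both and further in TT. It read 112, 117 and 158 TPM before the cold and 556, 311 and 520.1 after 8 h in YT, and 9.49, 9.92 and 16.9 against 136, 228 and 221 in TT. Log2 fold changes were 2.07 ± 0.26 and 3.97 ± 0.28, with a difference of -1.90 ± 0.35 (edgeR, adjusted p = 0.00195). In the TT libraries ending in B alone the change was 4.22 ± 0.20 (edgeR, adjusted p = 1.09e-08), and the interaction within letters was -1.97 ± 0.39 (adjusted p = 0.012). The YT to TT ratio fell from 9.93 at its highest to 2.36 at its lowest over the time points, still inside the rule.

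Nitab4.5_0002977g0140 (chromosome 17, 100310055 to 100318471) was called up in TT at all 5 cold time points, from a very low level, and at none in YT. Counts in TT were 11, 20 and 42 before the cold, 118, 117 and 133 after 2 h and 58, 62 and 70 after 8 h. Those in YT were 3759, 3762 and 4927, then 2914, 2862 and 3601, then 2551, 959 and 2512. The interaction was -2.79 ± 0.49 at 2 h and -2.27 ± 0.51 at 8 h (edgeR, adjusted p = 0.0026 and 0.0070). Within the TT libraries ending in B, of which 2 h holds 1 (assumed to vary like the others) and 8 h holds 2, the change was 2.65 ± 0.60 at 2 h and 1.56 ± 0.52 at 8 h (edgeR, adjusted p = 0.0054 and 0.032). The interaction within letters was -2.89 ± 0.53 and -1.97 ± 0.51 at these time points (edgeR, adjusted p = 0.0019 and 0.046). Nitab4.5_0000295g0070 (chromosome 17, 25979471 to 25986199) was likewise called up in TT at all 5 cold time points and at none in YT. TT had 8, 11 and 23 counts before the cold and 70, 43 and 77 after 2 h, while YT had 424, 422 and 411 and then 359, 328 and 317, and the interaction at 2 h was -2.54 ± 0.38 (edgeR, adjusted p = 0.00047). In the TT libraries ending in B the change at 2 h was 1.99 ± 0.76, with an adjusted p of 0.072 by edgeR, and that at 8 h was 1.96 ± 0.64 with an adjusted p of 0.029. The interaction at 2 h within letters was -2.16 ± 0.48 (edgeR, adjusted p = 0.0075).

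Nitab4.5_0000363g0080 in the chromosome 17 cluster was called in neither cultivar alone. It read 17.2, 14.2 and 17.8 TPM in YT before the cold and 9.36, 6.37 and 7.09 after 8 h, and 0.857, 0.275 and 0.619 against 1.58, 0.986 and 1.89 in TT. The difference of these changes was -1.47 ± 0.36 (edgeR, adjusted p = 0.013), and within letters it was -1.55 ± 0.40 (adjusted p = 0.042). In the TT libraries ending in B the change at 8 h was 0.67 ± 0.37 and not called (edgeR, adjusted p = 0.19). From the counts in place of TPM this gene did not meet the ratio rule, with a lowest ratio of 1.59.

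**Figure D5:**
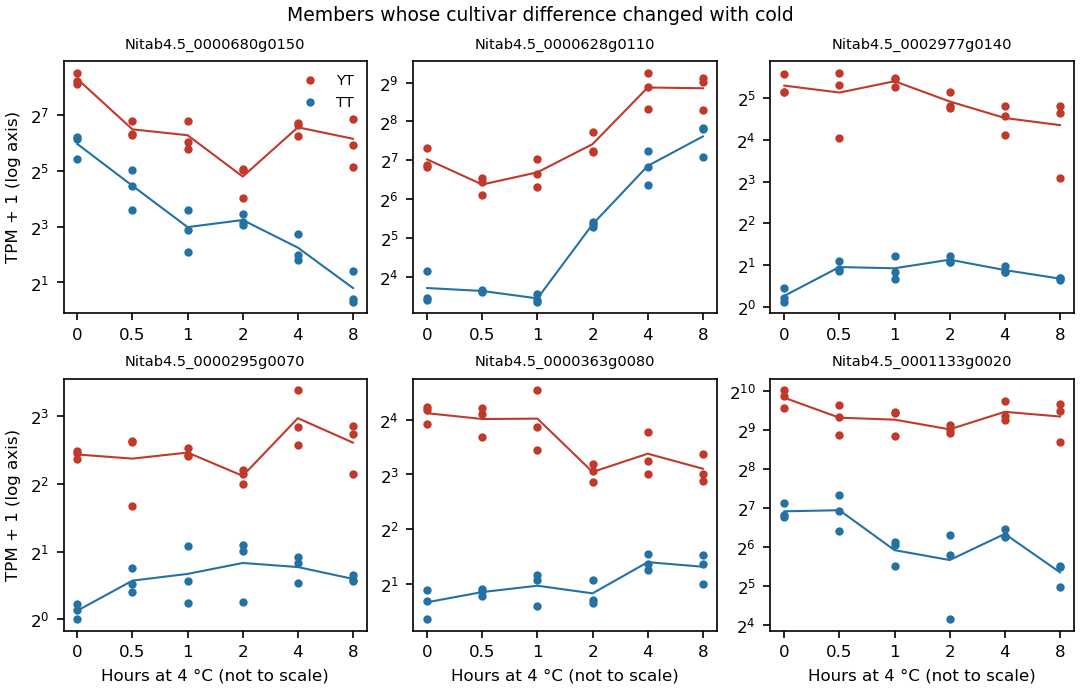
TPM + 1 on a log axis at each time point for 6 members whose cultivar difference changed with cold, with YT in red and TT in blue, 1 point a library and lines through the group means. Nitab4.5_0000680g0150 fell to 0.332, 0.239 and 1.66 TPM in TT at 8 h, and the TT libraries stay below the YT libraries of the same time point in each panel.

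Among the annotated members, 3 brown hub genes were called for a changed cultivar difference at 8 h. The RD22 relative Nitab4.5_0001133g0020 fell in TT from 107, 139 and 111 to 44.7, 30.1 and 43.9 TPM, a log2 fold change of -1.79 ± 0.31 (edgeR, adjusted p = 2.45e-05). In YT it read 750.4, 929.7 and 1032 before the cold and 813, 412 and 715 after 8 h, which was -0.32 ± 0.30 and not called. The interaction was 1.47 ± 0.42 (edgeR, adjusted p = 0.032), and leaving out 1 of 7 of the 12 libraries raised the adjusted p to as much as 0.087. The cyclophilin Nitab4.5_0001150g0020 fell in TT at 8 h (-1.10 ± 0.30) from 59, 88 and 53 counts to 26, 37 and 26, with an interaction of 1.38 ± 0.39 (edgeR, adjusted p = 0.028, up to 0.11 without 1 library). For the cystatin Nitab4.5_0001735g0110 the change in TT was -0.92 ± 0.24 and not called, and the interaction was 1.06 ± 0.33 (edgeR, adjusted p = 0.048, up to 0.18 without 1 library). Within letters the interactions of these 3 genes were 1.73, 1.43 and 0.66, and that of the cystatin was not called (edgeR, adjusted p = 0.018, 0.042 and 0.22). TT at 2 h was called down for the PDF1 relative (-1.26), where replicate 2 stood at 2.89 TPM beside 49.3 and 29.1, and without that library the change was -0.74 and not called.

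Over all libraries, 9 other annotated members had no call. The PII relative, the H protein, the pterin dehydratase, the hydrolase, the protein of unknown function, the phosphatase 2C, the leucine-rich repeat kinase and both AP2-EREBP genes were called in no cold comparison and in no interaction. Their log2 fold changes at 8 h in YT lay between -0.62 and 0.56. The hydrolase, the phosphatase 2C and both AP2-EREBP genes had at most 16 counts in any TT library, so that a change with cold there was not detectable at this depth unless large. In the TT libraries ending in B alone, the leucine-rich repeat kinase was called down at 1 h (-1.02 ± 0.29, edgeR, adjusted p = 0.033). These libraries had 111 and 148 counts, and the TT library of 1 h ending in A had 342. At 2 h its change was -1.65 on a single library, replicate 2, with 63 counts beside 235 and 182 in the other TT libraries. The H protein gene was called down at 2 h there (edgeR, adjusted p = 0.011), where the single library has 0 counts beside 28 and 10 in the other TT libraries of 2 h. The PHD-finger gene was called up in TT at 0.5, 2 and 8 h (1.59, 1.36 and 1.04) from a mean TPM under 1, and each of these calls was lost in the fit of only the libraries compared (edgeR, adjusted p = 0.068, 0.19 and 0.20).

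A few members varied widely between replicates. Over the YT libraries the SD of log2(TPM + 1) around the group means had a median of 0.38 over the members and 0.30 over the 20409 genes that averaged at least 1 TPM, but it exceeded 1 for 8 members. Nitab4.5_0000558g0010 (chromosome 4), just inside the rule, read 46.3, 0.769 and 17.9 TPM in YT before the cold and 0.772, 146 and 0 after 8 h, with 79.7, 0.303 and 0.885 in TT at 0.5 h. Its cultivars overlapped at 5 of the 6 time points. Nitab4.5_0000363g0010, the member with the largest ratio, read 364, 139 and 490.4 in YT before the cold, 290.2, 24.6 and 15.8 after 2 h and 133, 404 and 83 after 8 h, all above the highest TT value of 4.63. Nitab4.5_0000037g0320 read 2019, 957 and 2507, then 1515, 278 and 574, then 920.4, 2787 and 543 in the same libraries.

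For several of these genes the same libraries were high. Deviations from the group means over the 18 YT libraries correlated with those of Nitab4.5_0000363g0010 at r = 0.90 for Nitab4.5_0000037g0320, 0.90 for Nitab4.5_0000558g0010, 0.83 for Nitab4.5_0004097g0050, 0.82 for Nitab4.5_0001600g0100 and 0.74 for Nitab4.5_0001122g0160. These lie on chromosomes 14, 4, 20, 9 and 16. The other 3 of the 8 members followed it less closely, with r = 0.39 for Nitab4.5_0000866g0200, 0.31 for Nitab4.5_0000136g0200 and 0.29 for Nitab4.5_0000022g0210. The genes were chosen after their values were seen, the points share their libraries, and the values are a description. In all, 6 of the other members and 0.961% of 20401 expressed genes had an r above 0.7 with this gene. The neighbouring phosphatase 2C gene, at 0.72, completed the 6. The log2 fold changes at 8 h in YT were within their errors, at -0.01 ± 0.58 for Nitab4.5_0000037g0320 and -0.32 ± 0.76 for Nitab4.5_0000363g0010.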

How the data were processed

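Leaf RNA of 36 libraries was measured by RNA-seq. Per the submitters' processing notes the authors used FastQC 0.11.5, Trim Galore 0.6.4, HISAT2 2.0.5, SAMtools 1.9, StringTie 1.3.4d and featureCounts 1.6.4. The authors deposited raw counts per gene model (Nitab-v4.5), made without regard to strand, and TPM values from StringTie. Reads shared by the closely related copies of a gene in this allotetraploid can be split between them, so levels of such genes are uncertain. Ratios between cultivars used the deposited TPM + 1. Cold contrasts and interactions were fitted on the deposited counts with edgeR 4.0.16 in R 4.3.3 (TMM scaling, low counts filtered by filterByExpr, a quasi-likelihood test over all 12 groups, Benjamini-Hochberg adjustment over all 23740 genes tested). Calls needed an adjusted p under 0.05 and more than 1 log2 unit of change. The study's methods used DESeq2, run here as an alternative (version 1.42.0). The script was tested on simulated data.

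Genes were named by a fixed rule: annotated members, the 5 highest in YT, the largest calls at 8 h that had replicates apart and at least 10 CPM, members with 3 counts or fewer in every TT library (the 5 highest in YT), those near the threshold and the largest cluster. The members and lists were chosen with earlier results of these data known. Alternatives were scaling by DESeq2 size factors, no expression filter, a fit of only the libraries compared, a replicate block, another pseudocount, ratios from counts, and each library left out in turn. Fits within libraries whose names end in the same letter were added after seeing the data. Replicates are biological by the labels, and p-values measure the spread between them. Floors cover counting error only. Values after ± are an SD over the libraries counted by n, or for log2 fold changes an SE. The SE was derived from the edgeR test, whose estimate of spread is shared by all groups of the fit. No column of per-sample values was left unmapped.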

Additional observations from a re-analysis of the deposited data

Results flagged for a closer look

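The change of the cultivar difference with cold (YT minus TT, log2) passed the edgeR interaction test for 14 members at 1 or more time points, which made 22 results. Toward YT, Nitab4.5_0001922g0040 changed by 1.63 at 0.5 h, Nitab4.5_0000212g0010 by 2.79 at 2 h and 1.83 at 8 h, Nitab4.5_0000680g0150 by 2.56 at 4 h and 4.17 at 8 h, and Nitab4.5_0002908g0110 by 1.57 at 4 h. Also toward YT at 8 h were Nitab4.5_0001150g0020 at 1.38, Nitab4.5_0001735g0110 at 1.06, Nitab4.5_0001133g0020 at 1.47 and Nitab4.5_0000084g0350 at 4.12. The last value is a fitted one with TT at 3 counts or fewer in all libraries of 8 h, and gives no bound. Toward TT, the change of Nitab4.5_0000295g0070 was -1.75 at 0.5 h, -2.05 at 1 h and -2.54 at 2 h. Nitab4.5_0002977g0140 stood at -2.09, -2.79, -2.52 and -2.27 at 0.5, 2, 4 and 8 h. The change was -3.34 for Nitab4.5_0000728g0010 at 2 h, -1.42 and -1.47 for Nitab4.5_0000363g0080 at 4 and 8 h, and at 8 h -2.32 for Nitab4.5_0001438g0040 and -1.90 for Nitab4.5_0000628g0110. Of the 22 calls, 16 were lost when at least 1 of the 12 libraries in the contrast was left out.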

How the results depend on the processing

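The number of members was 175 with a pseudocount of 0.1 and 96 to 108 with 1 library left out, and 88 of the 102 met the ratio from counts. On counts, the members' median log2 difference between cultivars was 3.09, 2.99, 3.15, 3.33, 3.34 and 3.36 over the 6 time points, against 2.46, 2.13, 2.49, 2.19, 2.48 and 2.15 in log2(TPM + 1). With only the libraries compared, 4 members were called in YT at 1 h, 4 in TT at 0.5 h, 11 in TT at 2 h and 5 interactions at 8 h. DESeq2 called 7, 2 and 10 interactions at 0.5, 1 and 4 h. Shares of all genes called are given above for the interaction within letters. For the other alternative fits in this section they were not compared. A changed count of members there cannot be told apart from a change in calling over all genes. With TT libraries ending in B alone, an alternative chosen after seeing the data, TT at 0.5 h rests on a single cold library, and its calls are not compared. The interaction within letters, also added, called 0 members at 1 h, and at 2 h it rests on a single cold TT library. Leaving out 1 library in turn gave 0 to 1, 2 to 3, 6 to 8, 5 to 11 and 11 to 15 calls in YT at the 5 cold time points in order (17 to 25 at any). It gave 5 to 13, 7 to 12, 13 to 22, 12 to 18 and 16 to 18 in TT (27 to 37 at any), and 0 to 5, 0 to 1, 2 to 7, 0 to 8 and 5 to 14 interactions (7 to 18 at any). The extremes of the interactions came without TT 0 h replicate 1, 2 or 3 or YT 0 h replicate 3. No result reversed. Replicate numbers did not pair the samples, since same-numbered deviations correlated at -0.17 to 0.23 over 30 pairs and 4 were above 0.1. With the replicate block, 22 members were called in YT, 34 in TT and 14 for the interaction at 1 or more time points. Low counts in TT limit what can be said of cold there.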
